A study of Mus musculus with 2 samples.

Results

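Hepatocyte-like cells with a middling level of a Sox9-EGFP reporter were taken from single-cell RNA profiles of mouse liver, part of it from mice on a diet that injures the bile ducts. They were chosen by their own counts. A barcode of the DDC library was a member if it had at least 500 genes, at least 10000 UMIs (unique molecular identifiers, each standing for 1 captured RNA molecule) and at most 30% mitochondrial UMIs. It also needed at least 100 Alb UMIs per 10000, from 0.3 to under 2 EGFP UMIs per 10000, and under 2 per 10000 for the immune and endothelial genes Ptprc, Stab2, Clec4f and C1qa together. This rule found 334 cells, which were 24.6% (95% Clopper-Pearson interval 22.4 to 27.0) of the 1356 cells that passed it at any EGFP level. The library held 8694 barcodes, of which 2244 passed the depth and mitochondrial limits, and the whole series held 27010. The members were compared with the 777 cells of the same gate that had 0 EGFP UMIs, called EGFP-zero cells, and with the 241 cells at 2 or more EGFP UMIs per 10000, called EGFP-high cells, for which no Alb limit was set. A further 139 gated cells had EGFP UMIs but fewer than 0.3 per 10000.

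Hepatocytes were isolated by liver perfusion from C57BL/6J;129S6/SvEvTac mice. The DDC library pooled 2 wild-type mice on normal diet (day 0) with 2 Sox9-EGFP mice fed DDC for 2 weeks. DDC is a porphyrin-forming compound that interferes with making haem and damages bile ducts. The second library pooled wild-type mice on normal diet with Sox9-CreERT2:Rosa26-mTmG mice 5 months after the start of DDC diet with cMet, again with 2 mice each. The barcodes carry no mark of mouse, genotype or diet, so each library is 1 sample and no test between groups was possible. EGFP-zero cells can come from mice that have neither the reporter nor the diet. Reporter genotype, diet and EGFP level cannot be told apart between members and EGFP-zero cells. Comparisons with the cells under the floor and between members of different EGFP level are given beside the first, since all of these cells hold EGFP UMIs. The cells under the floor had a median of 1 EGFP UMI, so some may hold only free reporter RNA, and these comparisons need not be free of genotype and diet. Intervals below are at 95% and cover counting error only, not the difference between mice.

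Sox9 is a transcription factor of the bile duct epithelium. In an injured liver some hepatocytes switch it on, take up genes of duct cells such as Spp1 (osteopontin) and lose part of their metabolic programme, while still making albumin. Such cells are often called liver progenitor-like cells. Whether they form a distinct state or a range between hepatocyte and duct-like cells is a usual question about them.

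The 250 bases before the transcription start are shown for a pair of genes that were higher in the members (Spp1 and Tspan8) and a pair that were lower (Cyp2e1 and Cyp3a11). The sequences are RefSeq's for GRCm38.p6. The Spp1 window is chr5:104434861-104435110 (plus strand, the more upstream of its 2 listed starts), the Tspan8 window chr10:115817034-115817283 (plus), the Cyp2e1 window chr7:140763569-140763818 (plus) and the Cyp3a11 window chr5:145879855-145880104 (minus). All lie upstream of the first exon at that start. Capitals mark matches on either strand to 4 short motifs: GGAATG (TEAD), TGANTCA (AP-1), CAAAGTC (HNF4) and TGTTTAC (FOXA).
Spp1: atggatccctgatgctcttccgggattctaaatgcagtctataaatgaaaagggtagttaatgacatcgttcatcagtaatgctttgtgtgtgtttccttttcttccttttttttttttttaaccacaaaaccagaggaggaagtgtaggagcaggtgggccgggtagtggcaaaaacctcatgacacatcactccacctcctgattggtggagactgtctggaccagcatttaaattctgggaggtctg
Tspan8: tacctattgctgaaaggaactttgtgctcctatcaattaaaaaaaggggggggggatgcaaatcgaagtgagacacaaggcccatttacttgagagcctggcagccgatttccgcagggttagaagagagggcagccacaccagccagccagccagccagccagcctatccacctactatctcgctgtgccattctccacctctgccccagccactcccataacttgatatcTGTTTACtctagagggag
Cyp2e1: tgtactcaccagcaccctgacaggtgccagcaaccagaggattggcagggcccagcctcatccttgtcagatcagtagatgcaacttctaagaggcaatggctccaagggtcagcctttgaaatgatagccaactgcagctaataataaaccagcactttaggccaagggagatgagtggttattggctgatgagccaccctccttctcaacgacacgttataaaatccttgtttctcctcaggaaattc
Cyp3a11: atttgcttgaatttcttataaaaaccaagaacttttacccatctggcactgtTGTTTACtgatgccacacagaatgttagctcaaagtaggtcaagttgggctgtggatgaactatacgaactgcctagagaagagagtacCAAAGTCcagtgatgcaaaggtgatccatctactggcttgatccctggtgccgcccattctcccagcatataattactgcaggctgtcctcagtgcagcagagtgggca
The Spp1 and Cyp2e1 windows held none of the 4 motifs. Tspan8 had a FOXA match at position -18 from the start, and Cyp3a11 a FOXA match at -198 and an HNF4 match at -109. Of all 32851 promoters of this length, 12.6% held the TEAD motif, 6.75% AP-1, 3.84% HNF4 and 3.17% FOXA. For the genes at least 2-fold higher in the members than in EGFP-zero cells, 94 of 120 had an entry, and of their 114 promoters 11.4%, 5.26%, 2.63% and 3.51% held these motifs in that order. For the genes at least 2-fold lower, 119 of 163 had an entry, and of their 143 promoters 14.7%, 6.99%, 9.79% and 7.69% did. A match is a run of letters and shows no binding.

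The reporter rested on few molecules. A member had a median of 3 EGFP UMIs (1 to 20), and 57 members had 1 UMI and 89 had 2. By the rule, summed EGFP was 0 CPM (the gene's UMIs scaled to the pool's total) in EGFP-zero cells, 19.7 in the cells under the floor, 81.0 in the members and 709 in EGFP-high cells. The 10 members nearest the floor had 0.301 to 0.315 per 10000 and the 10 cells just under it 0.271 to 0.299. The 10 members nearest the upper limit had 1.88 to 1.99, and the 10 cells just over it 2.01 to 2.14. At the Alb limit, the 10 nearest cells inside had 100.1 to 109 per 10000 and the 10 outside 93.7 to 99.98, and 110 cells in the EGFP range failed only that limit. The members were split into 137 cells at 0.3 to 0.6, 105 at 0.6 to 1.0 and 92 at 1.0 to 2 EGFP UMIs per 10000, called the lowest, middle and highest range.

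Free reporter RNA was gauged in the 514 cells of the library that exceeded the immune and endothelial limit, with a median depth of 21622.5 UMIs against 42449.5 in the gated cells. Of these, 6.42% (4.46 to 8.90) had EGFP in the members' range. Any EGFP UMI was found in 11.9% of them. Among the 393 of them with under 20 Alb UMIs per 10000, 2.80% (1.41 to 4.95) had EGFP in the members' range. Any EGFP UMI was found in 4.58% (2.74 to 7.14) of these 393. Of the gated cells, 24.6% had EGFP in the members' range. Markers of other cell types were low. Summed Kupffer cell markers were 78.6 CPM in the members, 86.5 in EGFP-zero cells and 19710 in the cells over the immune limit. Clec4f and C1qa are among these 10 markers and were limited by the rule. The same limit picked the cells over it, so this contrast was set by the gate. Stellate cell and fibroblast markers were 47.0, 40.2 and 1577 CPM, and 196 in EGFP-high cells. T and NK cell markers reached 8.81 CPM in the members against 2.90 in EGFP-zero cells, from 7 cells. Of 8 cholangiocyte markers, summed to 24.2 CPM in the members, 21.3 in EGFP-zero and 55.8 in EGFP-high cells, Muc1 and Sctr had no UMI in any member. Krt19, a keratin of bile duct cells, was found in 2 members. No doublet caller was run. Members were deeper than EGFP-zero cells, with medians of 46794.5 and 37655 UMIs, and had 2905.5 and 2867 genes after thinning to 10000 UMIs.

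The markers that name these cells gave a mixed answer. Alb, which the rule used, was 27338 CPM in the members, close to the 29821 of EGFP-zero cells, and 12444 in EGFP-high cells. Spp1, a secreted phosphoprotein of duct cells, was 1161 CPM in EGFP-zero cells, 2036 in the cells under the floor, 3289, 5142 and 6377 in the 3 ranges of members and 15659 in EGFP-high cells. Over all members it was 4736 CPM, 4.08-fold above EGFP-zero cells (log2 2.03, 2.01 to 2.05) and 3.31-fold below EGFP-high cells. It increased at every step of EGFP.

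Spp1 varied widely from cell to cell. Members had from 0 to 434 Spp1 UMIs per 10000, with a median of 9.61 and quartiles of 2.10 and 50.9. EGFP-zero cells had from 0 to 317 with a median of 1.71, and EGFP-high cells from 0 to 612 with a median of 130. The 3 groups overlapped over nearly their whole range. After thinning, a Spp1 UMI was found in 78.6% of EGFP-zero cells, 90.4% of members and 76.8% of the cells over the immune limit. Whether the cells over the limit made Spp1 or held free RNA was not tested. These shares thus cannot tell how much of the Spp1 in EGFP-zero cells was background. The 90th percentile of EGFP-zero cells was 17.9 per 10000. The upper quartile of the members, 50.9, lay above the lower quartile of EGFP-high cells, 47.6.

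Tspan8, a membrane tetraspanin, was 65.1 CPM in EGFP-zero cells, 96.5 under the floor, 144 in the members and 220 in EGFP-high cells. Within the members its summed level did not follow EGFP: the 3 ranges had 136, 179 and 117 CPM. Their medians per cell were 0.153, 0.238 and 0.252 per 10000. Cells with a Tspan8 UMI were 50.4%, 55.2% and 63.0% of the ranges, or 37.2%, 43.8% and 42.4% after thinning. After every cell was thinned to 10000 UMIs, 40.7% of members (35.4 to 46.2) had a Tspan8 UMI against 20.3% of EGFP-zero cells (17.6 to 23.3). In the cells over the immune limit the share was 10.3%.

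Serpina6, which encodes corticosteroid-binding globulin, did not separate the members by the number of cells that showed it. Summed Serpina6 was 116 CPM in EGFP-zero cells, 192 in the members and 237 in EGFP-high cells, a log2 ratio of 0.72 (0.65 to 0.79) against EGFP-zero cells. The share of thinned cells with a UMI was 49.7% (44.2 to 55.2) in the members and 50.5% (46.9 to 54.0) in EGFP-zero cells. The 10 highest members held 32.0% of the members' Serpina6 UMIs and 1 cell held 9.13%. The medians per cell were 0.607 and 0.579 per 10000. Without thinning, the shares were 74.0% and 73.7%.

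Sox9 itself, whose regulation the reporter is built to follow, was 68.2 CPM in EGFP-zero cells, 94.7 under the floor, 102, 126 and 137 in the 3 ranges of members and 288 in EGFP-high cells. Over the members it was 119 CPM, 1.75-fold above EGFP-zero cells. Thinned cells with a Sox9 UMI were 38.2% (34.8 to 41.7) of EGFP-zero cells, 56.6% (51.1 to 62.0) of members and 85.1% (79.9 to 89.3) of EGFP-high cells, against 14.98% of the cells over the immune limit. Without thinning, 64.6% of EGFP-zero cells had a Sox9 UMI. EGFP-zero cells were therefore not without Sox9 RNA.

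**Figure D1:**
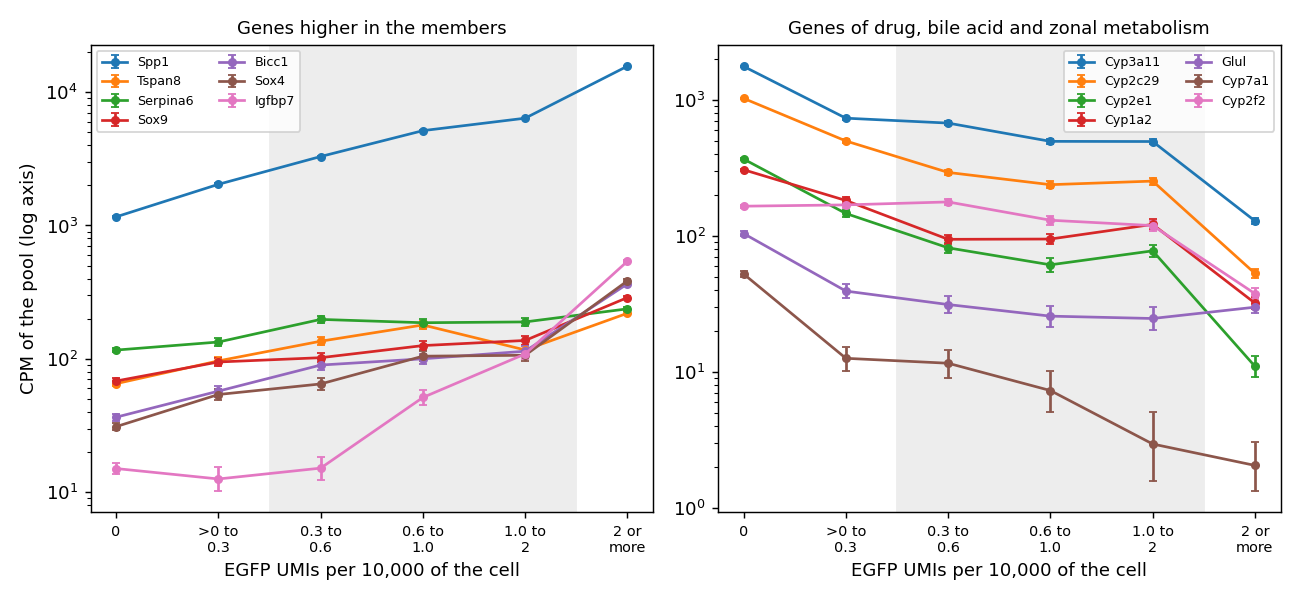
Summed level (CPM, log axis) of 14 genes in 6 pools of cells ordered by EGFP UMIs per 10,000 of the cell; points are pools, bars 95% Poisson intervals and the grey band the 3 ranges of members. Spp1 goes from 1161 to 15659 CPM with each step, while Cyp3a11 goes from 1766 to 129 CPM and Cyp7a1 from 52.5 to 2.05 CPM between the ends.

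Across all genes with at least 50 UMIs in the pair of pools, 120 of 11406 (1.05%) were at least 2-fold higher in the members than in EGFP-zero cells and 163 (1.43%) at least 2-fold lower. At any size, 6277 of them were higher and 5129 lower. Against EGFP-high cells, 236 of 11046 (2.14%) were at least 2-fold higher and 796 (7.21%) lower. By these counts the members stood closer to EGFP-zero than to EGFP-high cells. The order was not kept with the 106 EGFP-high cells that met the Alb limit, which gave 101 higher and 157 lower. Their pool held 5204828 UMIs against 12225451 without the limit, so fewer genes could reach 50 UMIs. How much this lowered the counts was not tested. With scaling by the median ratio of genes in place of the total, the split of the same 11046 genes against EGFP-high cells was 426 higher and 526 lower. Against the cells under the EGFP floor, 88 of 10522 genes (0.836%) were at least 2-fold higher in the members and 29 (0.276%) lower.

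Duct and progenitor genes were higher in the members as a group. All 11 measured genes of this list of 15 were higher than in EGFP-zero cells, 5 of them at least 2-fold, and the median log2 ratio was 0.98 against 0.03 for all genes. Against EGFP-high cells the median was -1.51 with 9 of 13 at least 2-fold lower, where all genes had -0.25. Against the cells under the floor it was 0.51 with 8 of 11 higher, where all genes had -0.01. The list holds Spp1, Tspan8 and Sox9, which helped to define or name these cells.

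Sox4, a transcription factor related to Sox9, was 31.0 CPM in EGFP-zero cells, 89.0 in the members (log2 1.52, 1.40 to 1.64) and 384 in EGFP-high cells. Its 3 ranges of members had 64.8, 105 and 106 CPM. Cd24a, a surface protein used to sort progenitor cells, was 8.12, 26.7 and 196 CPM in EGFP-zero cells, members and EGFP-high cells. It was found in 63 members, and 48.5% of its UMIs came from 10 of them. Krt23, a keratin induced in injured hepatocytes, was 26.5, 60.9 and 174 CPM. A Krt23 UMI was found in 35.6% of thinned members (30.5 to 41.0) and 17.4% of thinned EGFP-zero cells (14.8 to 20.2). Epcam, a duct cell adhesion molecule, reached 3.87 CPM in the members, from 29 cells, and 21.0 in EGFP-high cells.

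Outside that list, the largest ratios against EGFP-zero cells among genes of at least 50 CPM were those of Igfbp7, Prelp, H19, Bicc1 and Ier3. Bicc1, an RNA-binding protein of tubular epithelia, was 36.5 CPM in EGFP-zero cells, 99.8 in the members (log2 1.451, 1.34 to 1.56) and 365 in EGFP-high cells, and 255 of 334 members had a UMI. Prelp, a small matrix proteoglycan, was 17.1, 57.1 and 99.2 CPM. Ier3, an early response gene, was 39.2, 104 and 183 CPM. These 3 genes increased over the 3 ranges of members, with 85.9, 106 and 128 CPM for Ier3.

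Igfbp7, a secreted protein that binds growth factors, was different. It was 15.1 CPM in the lowest range of members, close to the 15.04 of EGFP-zero cells, then 51.3 and 109 CPM, and 539 in EGFP-high cells. Of the members' Igfbp7 UMIs, 70.8% came from 10 cells, and 90 members had any. Its level in the pool was thus set by a few cells that had much of it.

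Aldh1b1, a mitochondrial aldehyde dehydrogenase, and Hsd17b6, a steroid dehydrogenase, were higher in the members than in either end. Aldh1b1 was 62.3 CPM in EGFP-zero cells, 140 in the members and 97.5 in EGFP-high cells, and Hsd17b6 was 36.3, 77.0 and 42.6. Neither was 2-fold above both ends, and in the EGFP-high cells that met the Alb limit they were 154 and 88.0 CPM, above the members.

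Genes of drug metabolism were lower. All 12 measured cytochrome P450 and related genes were lower in the members than in EGFP-zero cells, 8 at least 2-fold, with a median log2 ratio of -1.61. All 10 genes measured against EGFP-high cells were higher in the members, 7 at least 2-fold, with a median of 1.77. Of all 11046 genes, 2864 were higher there and 236 at least 2-fold, with a median of -0.25. The members were chosen on Alb and these EGFP-high cells were not. Against the cells under the floor all 11 measured P450 and related genes were lower, 1 at least 2-fold, with a median of -0.84. Between the highest and the lowest range of members the median was -0.15, where 31 of all 9272 measured genes (0.334%) were at least 2-fold higher and 72 (0.777%) lower.

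Cyp2e1, which oxidises ethanol and paracetamol, was 367 CPM in EGFP-zero cells, 146 under the floor, 81.7, 61.2 and 77.6 in the 3 ranges of members and 10.97 in EGFP-high cells. The members were 4.96-fold below EGFP-zero cells (log2 -2.31, -2.40 to -2.22). A Cyp2e1 UMI was found in 28.7% of thinned members (23.9 to 33.9), in 51.9% of thinned EGFP-zero cells (48.3 to 55.4) and in 14.98% of the cells over the immune limit. Its share in EGFP-high cells, 9.54%, was under that of the cells over the immune limit. In the EGFP-high cells that met the Alb limit it was 15.1%. How much of these shares was free RNA was not tested.

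Cyp3a11, the main drug-oxidising P450 of the mouse liver, was 1766, 734, 569 and 129 CPM in EGFP-zero cells, cells under the floor, members and EGFP-high cells. Single members had from 0 to 84.9 Cyp3a11 UMIs per 10000, with a median of 1.54, and EGFP-zero cells from 0 to 161 with a median of 10.4. A Cyp3a11 UMI was found in 66.5% of thinned members, 32.4% of EGFP-high cells and 51.9% of the cells over the immune limit. In the EGFP-high cells that met the Alb limit the share was 42.5%. Single EGFP-high cells had up to 54.4 Cyp3a11 UMIs per 10000, and 60.4% of the UMIs of that pool came from 10 cells. How much of the rest was free RNA was not tested. Cyp2c29 was 1027, 499, 265 and 52.96 CPM and Cyp1a2 307, 182, 102 and 32.0 in the same order. Cyp2d9 and Cyp3a13 hardly differed, at log2 -0.32 and -0.10 against EGFP-zero cells. The Cyp2c and Cyp3a genes are families of close copies, and the labels do not state how reads shared between them were counted.

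The pericentral genes, those normally found around the central vein, were lower and the periportal genes were not. All 13 pericentral genes were lower than in EGFP-zero cells, 6 at least 2-fold, with a median log2 ratio of -0.75. Against the cells under the floor the median was -0.28, with all 12 measured genes lower and none at least 2-fold. The 12 periportal genes had a median of 0.16, with 9 higher and 3 lower, where 6277 of all 11406 genes were higher. Against the cells under the floor their median was 0.02. Glul, the glutamine synthetase of the innermost pericentral cells, was 104 CPM in EGFP-zero cells, 39.2 under the floor, 27.6 in the members and 29.9 in EGFP-high cells. For Glul, members and EGFP-high cells had nearly the same level (log2 -0.11, -0.32 to 0.09). In EGFP-zero cells 50.4% of the Glul UMIs came from 10 cells, which reached 136 per 10000, while no member exceeded 3.04. Oat, an ornithine aminotransferase of the same zone, had 38.8, 6.48, 4.88 and 3.44 CPM in EGFP-zero cells, cells under the floor, members and EGFP-high cells. On the periportal side Sds, serine dehydratase, was 147, 246, 253 and 212 CPM, and Ass1, a urea cycle enzyme, was 1554, 1530, 1292 and 538.

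Bile acid genes were lower in the members, all 13 of them against EGFP-zero cells and 3 at least 2-fold, with a median log2 ratio of -0.58. Against the cells under the floor the median was -0.26, with 12 of 13 lower and 2 at least 2-fold. Cyp7a1, which catalyses the first step from cholesterol to bile acids, was 52.5 CPM in EGFP-zero cells, 12.6 under the floor, 11.6, 7.28 and 2.94 in the 3 ranges of members and 2.05 in EGFP-high cells. Only 42 of 334 members had a Cyp7a1 UMI, against 267 of 777 EGFP-zero cells. The uptake transporters Slc10a1 and Slco1b2 were 73.4 and 383 CPM in EGFP-zero cells, 47.7 and 217 in the members and 11.1 and 77.1 in EGFP-high cells. The canalicular pump Abcb11 was 144, 98.0 and 31.8 CPM.

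Genes of glutathione and the antioxidant response were lower too. All 14 had a log2 ratio under 0 against EGFP-zero cells, 5 at least 2-fold, with a median of -0.78, and all 14 were also lower than in the cells under the floor (median -0.55, 2 at least 2-fold). Gstm3, a glutathione transferase, was 729 CPM in EGFP-zero cells, 336 in the members and 134 in EGFP-high cells. Gclm, a subunit of the enzyme that starts glutathione synthesis, hardly moved, with 469, 452 and 490 CPM. Haem and iron genes, the pathway that DDC blocks, had a median of -0.15 with none of 13 at least 2-fold different. Ferrochelatase, Fech, was 101 CPM in EGFP-zero cells and 90.9 in the members.

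Secreted liver proteins and the transcription factors of hepatocytes stayed near EGFP-zero cells. Both pools had to meet the Alb limit, which 110 cells of the members' EGFP range failed. The part of the rule in this likeness was not tested. The 18 plasma protein genes had a median log2 ratio of 0.11, and the 17 hepatocyte transcription factors 0.02, with none at least 2-fold different in either list. Hnf4a, a central regulator of hepatocyte genes, was 149 CPM in EGFP-zero cells, 140 in the members and 112 in EGFP-high cells. Apoa1, an apolipoprotein, was 10754, 13947 and 8463 CPM. Against EGFP-high cells the plasma protein genes were all higher in the members, with a median of 0.56. In the same comparison 4 of 7 urea cycle genes were at least 2-fold higher (median 1.08). Of all 11046 genes, 2864 were higher there and 236 at least 2-fold. The members were chosen on Alb and these EGFP-high cells were not. In the EGFP-high cells that met the Alb limit, the urea cycle genes Cps1 and Ass1 were 519 and 873 CPM against 870 and 1292 in the members, less than 2-fold apart. Acute phase genes had medians of 0.21 against EGFP-zero and 1.02 against EGFP-high cells. Among them, Saa2 was 424 CPM in the middle range of members and 82.8 and 54.3 in the others, and 83.9% of the members' Saa2 UMIs came from 10 cells.

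**Figure D2:**
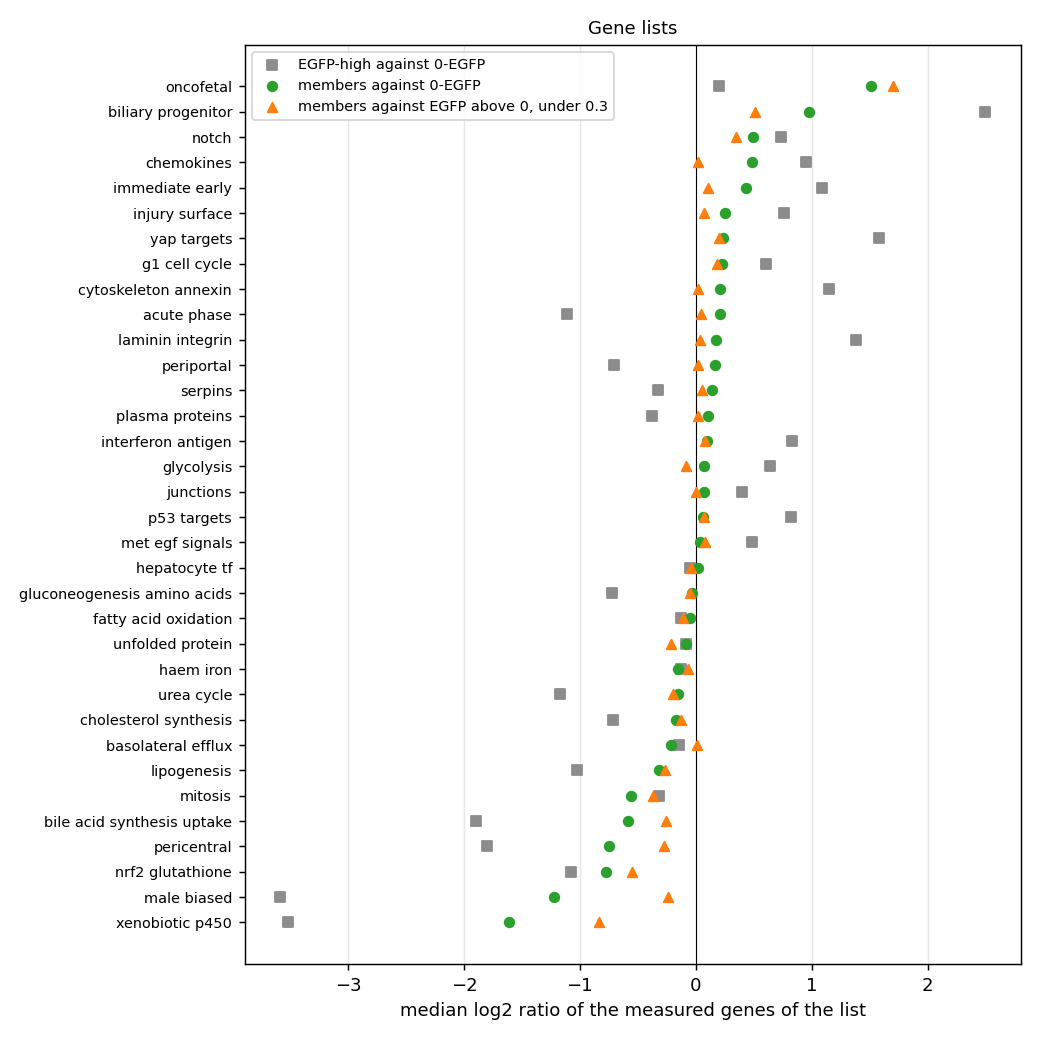
Median log2 ratio of the measured genes of 34 lists for EGFP-high against EGFP-zero cells (squares), members against EGFP-zero cells (circles) and members against cells with EGFP under the floor (triangles). For duct and progenitor genes the members lie at 0.98 and for P450 genes at -1.61, while the plasma protein (0.11) and hepatocyte transcription factor (0.02) lists lie near 0; the first pair of comparisons shares the EGFP-zero cells.

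YAP target genes, which respond to cell stretch and injury, had a median log2 ratio of 0.24 against EGFP-zero cells. Of these, 8 of 10 were higher and 1 at least 2-fold, where 6277 of all 11406 genes were higher. Against EGFP-high cells all 10 were lower, 6 at least 2-fold, with a median of -1.24, where 8182 of all 11046 genes were lower and the median was -0.25. Ccn2, a matrix protein and YAP target, was 3.53 CPM in EGFP-zero cells, 18.5 in the members and 238 in EGFP-high cells. The members' 3 ranges had 11.2, 14.1 and 33.9 CPM, and 61.3% of the UMIs came from 10 cells. Ankrd1, another such target, was 0.698 CPM in the members and 36.7 in EGFP-high cells. Of the Notch pathway, which drives duct fate, only 4 of 10 genes were measured, with medians of 0.50 against EGFP-zero and -0.29 against EGFP-high cells. Jag1, a Notch ligand, was 3.96, 9.004 and 41.6 CPM and Hes1, a Notch target, was 83.6, 134 and 165 CPM in EGFP-zero cells, members and EGFP-high cells. Cytoskeletal and annexin genes had a median of 0.21 against EGFP-zero and -1.06 against EGFP-high cells. Vim, an intermediate filament protein of mesenchymal and duct cells, was 20.2, 24.8 and 190 CPM. In the EGFP-high cells that met the Alb limit it was 71.5 CPM. Stellate cell markers, 47.0 CPM in the members and 196 in EGFP-high cells, differed in the same direction, and their part in these values was not tested.

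Early response genes were higher in both. Fos and Junb, subunits of the AP-1 transcription factor, were 216 and 111 CPM in EGFP-zero cells, 370 and 186 in the members and 549 and 368 in EGFP-high cells. The list's median was 0.43 against EGFP-zero cells but 0.10 against the cells under the floor. Cell isolation is known to induce these genes, and its part was not tested.

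To place the members between the 2 ends, the 528 genes that differed at least 4-fold between EGFP-zero and EGFP-high cells were used. On the log2 scale, with 0 at EGFP-zero and 1 at EGFP-high cells, the members' median position was 0.33, with quartiles of 0.24 and 0.44. The 366 genes that were higher in EGFP-high cells had a median of 0.32 and the 162 that were lower 0.37. In CPM, without logs, these medians were 0.13 and 0.59. Of the 528 genes, 21 lay under 0 and 6 over 1. With the Alb limit on the EGFP-high cells the median position was 0.47. The genes were chosen on the same end pools, so the position is a description.

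**Figure D3:**
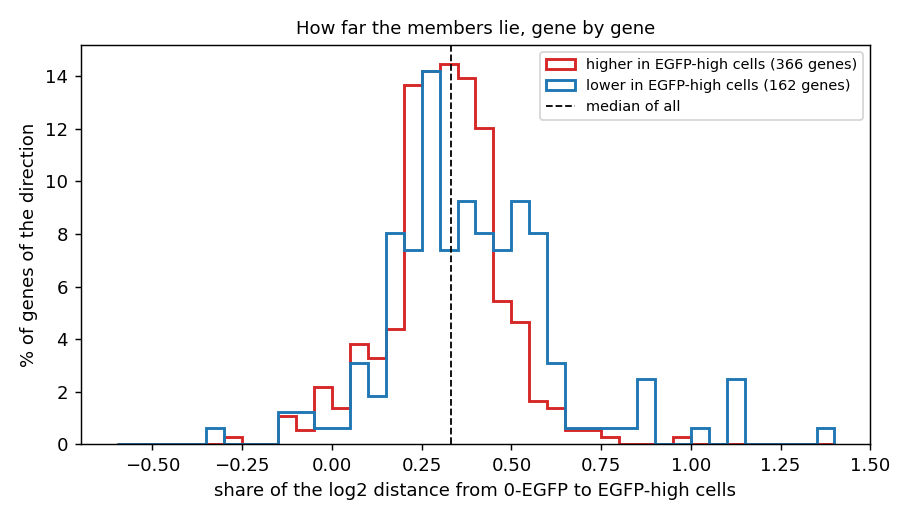
Position of the members on the log2 scale from EGFP-zero (0) to EGFP-high cells (1) for the 366 genes that were higher and the 162 that were lower in EGFP-high cells; the y axis is the percent of the genes of that direction. Both distributions centre near 0.33, the median of all 528 genes, and few genes lie outside the 2 ends.

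Single cells were placed on the same range. Each cell was scored from 50 of the higher and 50 of the lower genes after thinning to 10000 UMIs, with the mean of EGFP-zero cells at 0 and that of EGFP-high cells at 1. The median score was -0.03 in EGFP-zero cells, 0.12 in the cells under the floor, 0.27 in the members and 1.04 in EGFP-high cells. The SD over cells was 0.383 in the members, 0.355 in EGFP-zero cells, 0.333 in the cells under the floor and 0.508 in EGFP-high cells, so the members were spread about as widely as the cells with no EGFP. Of the members 47.3% (41.8 to 52.8) scored under 0.25, 40.7% (35.4 to 46.2) from 0.25 to 0.75 and 12.0% (8.70 to 15.9) over 0.75. Of EGFP-zero cells 79.4% (76.4 to 82.2) scored under 0.25 and 3.47% (2.30 to 5.02) over 0.75. Of EGFP-high cells 65.1% (58.8 to 71.1) scored over 0.75, or 35.8% (26.8 to 45.7) of those that met the Alb limit. The score is a cut range and not a cell type, and the groups overlapped.

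**Figure D4:**
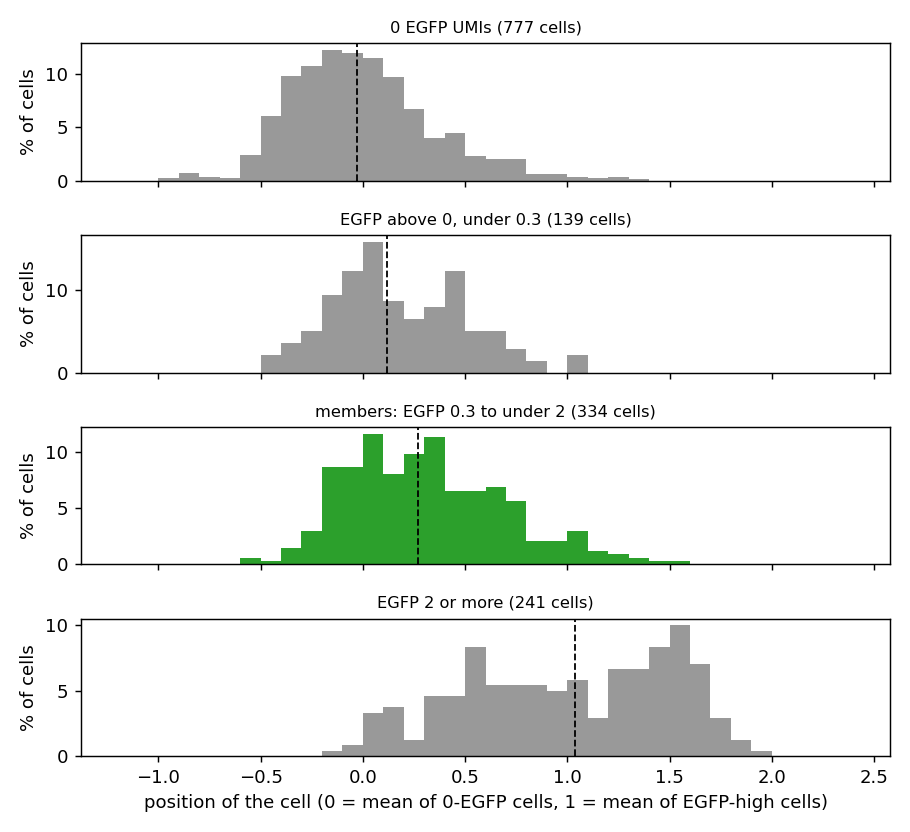
Percent of cells by score in steps of 0.1 for EGFP-zero cells, cells with EGFP under the floor, members (green) and EGFP-high cells; the dashed line is the median of the group. The median is -0.03 in EGFP-zero cells, 0.27 in the members, of which 47.3% lie under 0.25, and 1.04 in EGFP-high cells, and the groups overlap.

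Within the members, the EGFP level said little about a cell's score. Over the 334 cells, which share 1 library, Spearman's rho was 0.15 (Pearson's r 0.16) between EGFP and the score, 0.12 between EGFP and Sox9 and 0.20 between EGFP and Spp1. The score and the cell's UMIs had a rho of 0.35, so depth moved with the score. Sox9 and the score had a rho of 0.53, but Sox9 is one of the genes that make up the score, so this value is in part Sox9 with itself and is not set against the others. The scores from higher and from lower genes had a rho of 0.76: cells with more RNA of duct and injury genes had less of the metabolic genes. Both scores come from the same thinned counts. By EGFP range the median scores were 0.23, 0.27 and 0.36, and the shares over 0.75 were 7.30%, 14.3% and 16.3%, with intervals that overlapped (3.56 to 13.0, 8.22 to 22.5 and 9.42 to 25.5). Of 4564 genes, none had a correlation with EGFP over 0.3 across members. The 3 highest were Vtn (0.26), Tm4sf4 (0.22) and Spp1 (0.21), and with so few EGFP molecules per cell these weak values are given as a description.

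RNA of mitosis genes was found in some members. After thinning, 30 of 334 members (8.98%, 6.14 to 12.6) had at least 3 UMIs of the 14 mitosis genes, against 13.0% (10.7 to 15.6) of EGFP-zero and 2.90% (1.18 to 5.89) of EGFP-high cells. In the cells over the immune limit the share was 9.73% (7.31 to 12.6). Whether those cells made this RNA or held free RNA was not tested, so their share is not a background level. By EGFP range the shares were 12.4%, 6.67% and 6.52%, with overlapping intervals (7.40 to 19.1, 2.72 to 13.3 and 2.43 to 13.7). The list's median log2 ratio was -0.55 against EGFP-zero cells and -2.33 between the highest and the lowest range of members, where 10 of 11 measured genes were at least 2-fold lower. Mki67, a marker of cycling cells, was 22.8, 8.89 and 4.53 CPM in the 3 ranges, and 68.1% of the members' Mki67 UMIs came from 10 cells.

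Few genes lay outside both ends. Of 11932 genes with at least 50 UMIs over the 3 pools, 3 (0.0251%) were at least 2-fold above both EGFP-zero and EGFP-high cells: H19, Nkg7 and Ptgds. Nkg7 is a gene of cytotoxic lymphocytes whose 36 UMIs in the members came from 2 cells. The 29 genes (0.243%) at least 2-fold below both ends were mostly rare, and Hspb1 was the most abundant of them.

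H19, an imprinted long noncoding RNA of fetal liver, was 29.3 CPM in EGFP-zero cells, 9.59 under the floor, 51.2, 55.6 and 195 in the 3 ranges of members and 0.819 in EGFP-high cells. It came from few cells: 26 of 334 members had an H19 UMI, and 10 of them held 98.4% of it. In EGFP-zero cells 38 of 777 had a UMI and 10 cells held 95.3%. The fetal genes Afp and Gpc3 were 10.6 and 1.46 CPM in EGFP-zero cells and 23.7 and 4.18 in the members, and 70.5% and 66.7% of the members' UMIs came from 10 cells.

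Hspb1 and Hspa1b, heat shock chaperones, were lower in the members than in EGFP-zero cells through single cells of the latter. Summed Hspb1 was 219 CPM in EGFP-zero cells and 56.3 in the members, but 75.01% of the UMIs of EGFP-zero cells came from 1 cell, and the medians per cell were 0.203 and 0.232 per 10000. For Hspa1b 86.4% came from 1 cell. Without the 5% deepest cells of each pool the log2 ratios were 0.12 for Hspb1 and -0.16 for Hspa1b, in place of -1.96 and -3.05. The difference in summed levels was thus not a difference of most cells.

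In the second library, which has no EGFP feature and whose treated mice have another genotype, the only available match is a gate on Sox9. This library also pools wild-type mice on normal diet with treated mice. Genotype, treatment and Sox9 level therefore cannot be told apart there either. There 573 gated cells with at least 0.3 and under 2 Sox9 UMIs per 10000 were set against 2005 gated cells with 0 Sox9 UMIs, with median depths of 37987 and 33938 UMIs. Of the 120 genes at least 2-fold higher in the members, 91 were measured there. Of these, 84 (92.3%) were higher in the cells with Sox9 and 49 at least 2-fold, while 70.3% of all 12004 measured genes were higher and 226 at least 2-fold. Of the 162 lower genes whose symbol belongs to 1 row of the files, 151 were measured there, 117 (77.5%) were lower and 23 at least 2-fold lower, against 29.7% and 91 of all measured genes. Spp1 was 186 CPM in cells without and 919 in cells with Sox9 (log2 2.30, 2.27 to 2.33), Sox4 7.84 and 37.1, and Bicc1 16.6 and 44.1. Cyp2e1 was 542 and 284 CPM and Cyp3a11 1723 and 1344 (log2 -0.36, -0.38 to -0.34). The duct and progenitor list had a median of 1.453 there and the P450 list -0.61. The treatment, the genotype of the treated mice and the gate differ from those of the members, so these values are given side by side. Their sizes were not compared. No member's barcode recurs in the second library, though the libraries share 50 barcodes.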

How the data were processed

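Droplet libraries (10x Chromium v3) of 2 samples were used. The authors deposited counts: UMI counts per gene and barcode, not normalized. Gene and barcode lists of the deposited matrices are text with no unit (other). Per the file headers, the matrices come from Cell Ranger 5.0.1, whereas Cell Ranger 6.0.1 with Seurat 4.0.1 and mm10 are listed in the submitters' processing notes, and the data do not settle which is right. Depth was 104523363 UMIs over 8694 barcodes (DDC) and 186997180 over 18316 (second library).

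UMIs were summed over each pool and divided by its total without EGFP to give CPM, with exact Poisson intervals. Ratios were taken for genes with at least 50 UMIs in both pools together, with exact conditional binomial intervals, and a pool at 0 was set to 3 UMIs, so that such a ratio is a bound. No p-value is given, since a group has 1 library. Genes past 2-fold are a description. Thinning drew 10000 UMIs per cell without replacement. No doublet caller was run; the 5% deepest cells were left out as an alternative. The members and the 35 gene lists were chosen with earlier results of these data known. Named genes are EGFP, Sox9 and the markers, the 15 highest and 15 lowest ratios against EGFP-zero cells, up to 10 above and 10 below both ends, the 10 highest and 10 lowest against EGFP-high cells (50 CPM or more in either pool, leaving out mitochondrial, ribosomal, unnamed and other cell types' genes) and up to 4 per list. Other genes in the text were named after their values were seen. Ratios and intervals were tested on simulated data. Alternatives concern the gate, depth, scaling, weighting and UMI minimum. Scripts used scipy 1.17.1 for intervals, numpy 2.4.6 and pandas 2.3.3 for sums, and matplotlib 3.10.9 for plots, under Python 3.11.15.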

Additional observations from a re-analysis of the deposited data

Results flagged for a closer look

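EGFP was found outside the gated cells, in cells that were not a pool of the ratios but served as a reference above. In the 514 cells of the DDC library over the immune and endothelial limit, summed EGFP was 52.7 CPM, from 61 cells, above the limit that a count of 0 allows. Among the 393 of them with under 20 Alb UMIs per 10000, 18 had an EGFP UMI.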

How the results depend on the processing

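Counts past 2-fold moved with several choices. At 20 UMIs a gene, 270 genes were higher and 300 lower than in EGFP-zero cells, 28 lay above and 116 below both ends. At 200 UMIs, these were 49, 88 and, below both ends, 6, and against EGFP-high cells 157 higher and 354 lower. Fewer genes are tested at 200 UMIs. With cells thinned to 10000 UMIs, 74 were higher than in EGFP-zero and 455 lower than in EGFP-high cells. Median-ratio scaling gave 426 higher and 526 lower than EGFP-high cells and 7 above both ends. With the Alb limit on EGFP-high cells, 101 were higher and 157 lower than these, 6 lay above and 13 below both ends, and the median position was 0.47. At an EGFP floor of 0.5, 64 genes lay below both ends. Genes above both ends were 8 with equal weight per cell, 8 at an Alb limit of 200, 7 at an immune sum of 0 and 5 without the 5% deepest cells. Against the cells under the EGFP floor, an alternative chosen after seeing the data, 29 genes were lower. Except where the alternative itself changes the number of genes or cells, the cause was not tested.

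Of 558 list medians over 16 alternatives, 533 moved by under 0.25, 25 by more and none above 0.5 in size reversed. Duct and progenitor genes kept a median of 0.51 to 1.16 and P450 genes of -1.92 to -0.84. Mitosis ran from -1.46 to -0.06. Of 512 ratios of named genes, 352 stayed within their intervals, 155 moved and 5 reversed. The reversed ones were Hspb1 (0.083 at an Alb limit of 200, 0.53 at an immune sum of 0, 0.12 without the deepest cells) and Hspa1b (0.14 at an immune sum of 0, 0.10 against the cells under the floor). Leaving out cells with other types' markers at 5 or more per 10000, also chosen after seeing the data, kept 315 members and moved no count by over 1.5 times. No paired analysis was possible because each group is 1 library. Depth limits EGFP: a cell with 1 EGFP UMI falls under the floor only if it is deep, and the cells under it had at least 33470 UMIs.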

Other observations

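Further lists were compared between members and EGFP-zero cells. All 8 measured lipogenesis genes were lower in the members, none 2-fold, with a median log2 ratio of -0.32. Targets of p53 and interferon and antigen presentation genes had medians of 0.06 and 0.10, with none of 12 in either list 2-fold different. Against EGFP-high cells both lists were lower in the members, with medians of -0.66 and -0.58, where the median of all genes was -0.25 and 8182 of 11046 genes were lower. Genes higher in male liver had a median of -1.22 against EGFP-zero cells, with 7 of 8 lower and 4 at least 2-fold. Against the cells under the floor 3 were higher and 3 lower, with a median of -0.24. Over the alternatives, which include that comparison, the median ran from -2.25 to -0.24.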
